A study of Mus musculus with 2 samples.

Results

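The testis-specific serine kinases are a family of 6 genes in the mouse, Tssk1 to Tssk6, and all 6 were among the 32285 genes listed in these data. The family was taken whole by name, and it was selected on measured values: Tssk6 had been seen far higher in the knockout library, and the question was whether its relatives follow it. The difference of Tssk6 between the libraries is therefore given as a description and supports nothing by itself. RNA was counted in single cells from the dissociated whole testis of mice, in 1 library for each of 2 genotypes. The conditional knockout (cKO) was Dot1L fl/delta with the Ddx4-Cre transgene, and the control was Dot1L fl/+ without Cre. DOT1L is the methyltransferase of lysine 79 of histone H3. The Ddx4-Cre driver is active in germ cells, so it does not act on the somatic cells of the testis. By genotype, those of the cKO still have 1 delta allele in the place of the wild-type allele of the control. The labels give neither the age nor the number of animals behind a library.

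The kinases of this family are made almost only in the germ line after meiosis, in spermatids, the haploid cells that form an acrosome and a flagellum and pack their DNA with protamines. They phosphorylate proteins of the forming sperm and work with chaperones and scaffold proteins. In mice, males that lack Tssk6 are infertile and have faulty chromatin condensation, loss of Tssk1 and Tssk2 together also leaves males infertile, and TSSK4 is known for phosphorylating the transcription factor CREB and the tail protein ODF2.

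The cKO library held 20601 barcodes and 156518838 unique molecular identifiers (UMIs, each standing for a captured transcript), and the control library held 17408 barcodes and 155487418 UMIs. After filters, 17818 cKO and 15372 control cells were kept. There were 102 barcodes found in both libraries, and leaving them out kept all 24 log2 ratios of the members in spermatocytes and spermatids within their counting intervals. Cells were clustered without the Tssk genes, and clusters were named from markers, since no annotation was used here. Round spermatids numbered 995 in the cKO and 1531 in the control, elongating spermatids 3157 and 3355, and mid to late spermatocytes 1541 and 1533. The spermatids of the 2 libraries lay almost entirely in different clusters. Round cKO spermatids were in clusters 11 (743 cells) and 28 (249 cells), and round control spermatids in clusters 10 (957 cells) and 18 (574 cells). Among elongating spermatids, clusters 4 (1672), 7 (1037) and 22 (418) held the cKO cells and clusters 3 (1903), 6 (1083) and 24 (359) the control cells. Mid to late spermatocytes were largely split too. Clusters 14 (722 cKO and 6 control cells) and 17 (572 and 19) were mostly cKO. Clusters 9 (183 and 839), 25 (8 and 364) and 26 (56 and 305) were mostly control. Tssk1 ran from 8.77 CPM in cluster 25 to 256 CPM in cluster 14. Tssk6 was itself among the 10 leading genes of cluster 7. A further 7931 cKO and 6640 control cells were in clusters without a name, which had a median of 984 and 888 UMIs per cell. With 1 library per genotype no test was possible, and genotype, animal, dissociation and library cannot be told apart. The 95% intervals below cover counting error only.

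Over spermatids as a whole the 5 relatives did not follow Tssk6. In round spermatids 1 of the 6 genes was over 1.5-fold higher in the cKO, Tssk6 itself, and none was over 1.5-fold lower, against 19.5% of 15200 measured genes higher and 10.0% lower. Tssk6 was 9.97-fold higher there and 17.5-fold higher in elongating spermatids. Summed over all spermatids, the log2 ratios of Tssk1 to Tssk5 lay between -0.12 and 0.13, beside 4.30 for Tssk6 and a median of 0.14 over 16808 genes. With spermatids ordered by the share of late genes, as described below, each member had its highest CPM at the same point in both libraries.

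Tssk6 lies on chromosome 8 and has a single exon (chr8:69902184-69903518, plus strand, GENCODE vM21 on GRCm38, the mm10 build). Tssk1 (chr16:17894223-17897922) and Tssk2 (chr16:17898637-17900024) are single-exon genes in a row on the plus strand, 715 bases apart. Tssk3 is at chr4:129489014-129491022 on the minus strand with 2 exons. Tssk4 is at chr14:55650184-55652539 on the plus strand and Tssk5 at chr15:76371952-76374938 on the minus strand. None of the 40-base words in the last 400 bases of any member's longest transcript was found in another gene, so the 3′ ends that this kit reads tell the 6 genes apart. The 120 bases before the RefSeq starts of Tssk6, Tssk1 and Tssk2 are shown because Tssk6 is the member that differs between the libraries, while its relatives Tssk1 and Tssk2, neighbours on their chromosome, differ little. Capitals mark TGACG, the start of the site TGACGTCA that CREB and CREM are known to bind, and TGACTTCA, a word noticed in 2 of these promoters after they were read. Both were searched on both strands, and neither contains the other.
Tssk6: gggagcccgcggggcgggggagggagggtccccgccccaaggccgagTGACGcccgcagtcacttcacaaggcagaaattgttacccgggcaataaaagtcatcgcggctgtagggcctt
Tssk1: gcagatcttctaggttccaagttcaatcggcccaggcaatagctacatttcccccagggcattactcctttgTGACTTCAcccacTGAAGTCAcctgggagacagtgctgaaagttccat
Tssk2: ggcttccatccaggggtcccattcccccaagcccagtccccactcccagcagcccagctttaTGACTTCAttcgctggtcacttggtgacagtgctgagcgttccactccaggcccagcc
These are chr8:69902064-69902183, chr16:17894083-17894202 and chr16:17898517-17898636, all on the plus strand, from RefSeq on GRCm38.p6. Promoters of 5 members were matched there by gene symbol, and no entry was found for Tssk5. In the 250 bases before each start, TGACG was found only in Tssk6, with its first base 73 bases before the start, and 17.8% of 32851 mouse promoters of this length hold it. TGACTTCA was found at 48 and 35 bases before the start of Tssk1 and at 58 bases before that of Tssk2, and 1.31% of promoters hold it. The whole site TGACGTCA (1.55% of promoters) and TATAAA (12.4%) were in none of the 5. CCAAT (33.8%) was in the promoters of Tssk3 and Tssk4, which are not shown. A match is a string of letters and not a bound site.

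Levels are given as CPM, the UMIs of a gene per 1000000 UMIs of the cells of a class. Each captured transcript gives 1 tag at its 3′ end whatever its length, so no division by length was made. To follow spermatids without the cluster boundaries, the spermatids of both libraries were also put into 5 ranges of equal size by the share of their UMIs from 8 late genes (Oaz3, Odf1, Smcp, Akap4, Gapdhs, Cst13, Hmgb4 and Fscn3). The boundaries were at 0.748%, 1.67%, 2.09% and 2.88%. A range is a stretch of a continuous measure and not a type: within 10% of the third boundary lay 888 cKO and 871 control cells. Range 1 held 805 cKO and 1003 control cells, nearly all of the round class, range 2 both classes, and ranges 3 to 5 almost only elongating spermatids. The round class as a whole had a median late gene share of 0.428% in the cKO and 0.545% in the control. Ratios of that class are thus not matched on this share. Transition proteins and protamines made up a median of 21.9% of UMIs in cKO cells of range 4 and 31.6% in control cells, so the ranges did not match the libraries on these genes. With ranges by the share of Tnp1, Tnp2, Prm1 and Prm2 instead, Tssk2, Tssk3 and Tssk6 were highest in range 3 of the cKO and in range 4 of the control, with 1531 and 1446 CPM, 903 and 997 CPM, and 2515 and 146 CPM. The round spermatid markers had medians of 0.299% and 0.452% in range 2.

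**Figure D1:**
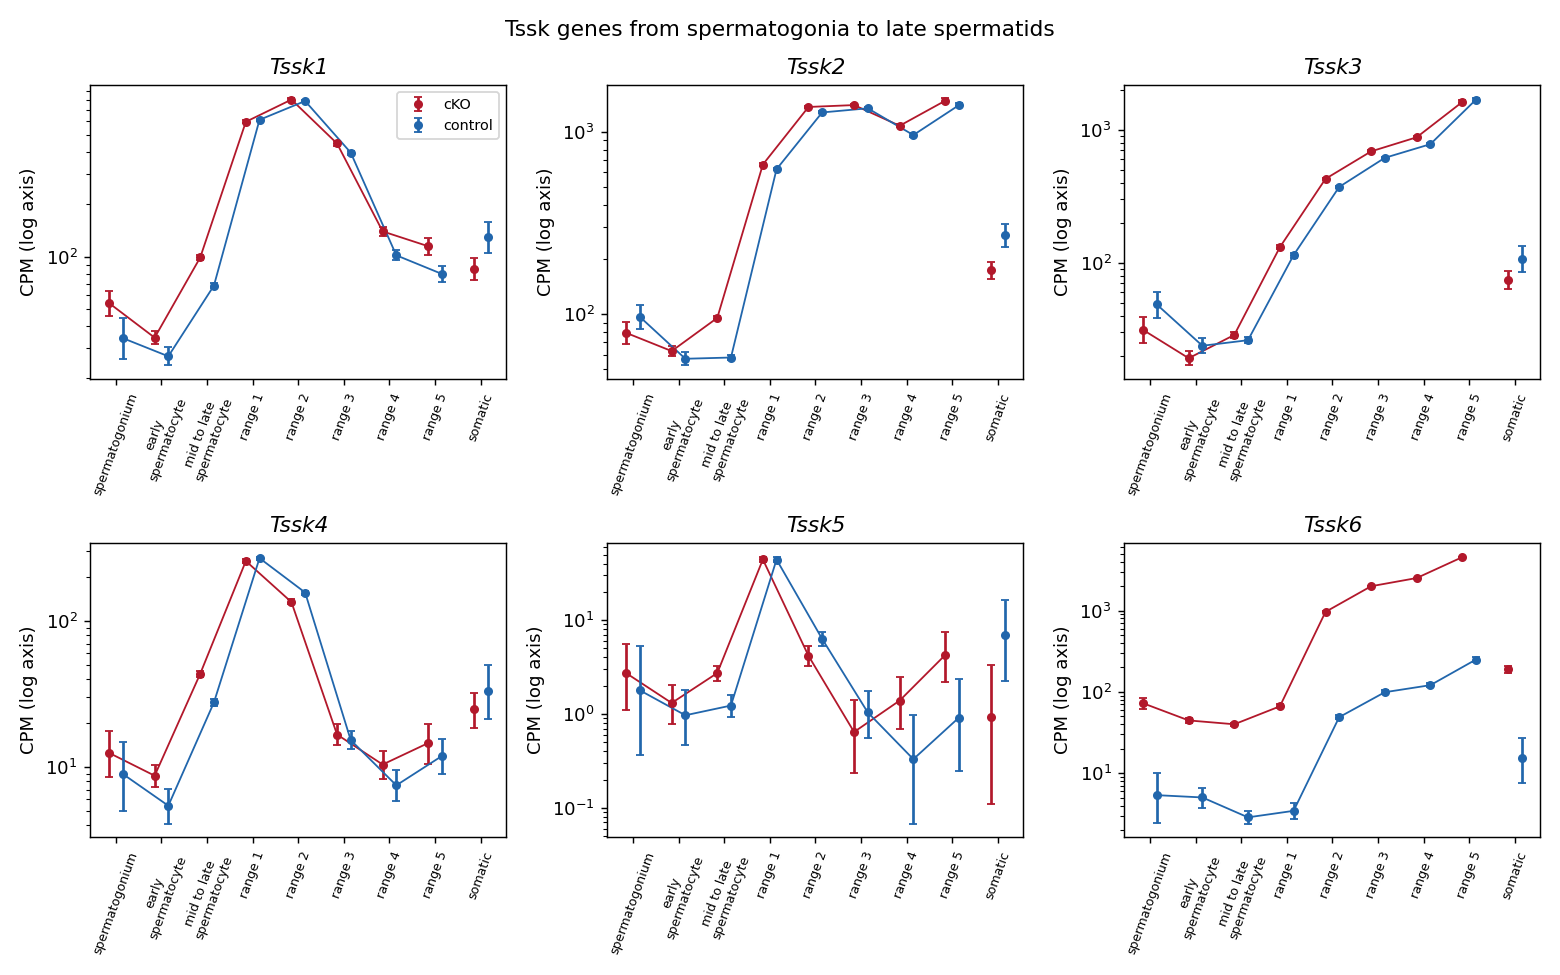
Each panel is 1 Tssk gene, with CPM on a log axis for cKO (red, left) and control (blue, right) from spermatogonia to the last range of spermatids, and for somatic cells. Bars are exact 95% Poisson intervals. The 2 lines run close together for Tssk1 to Tssk4 in spermatids, while for Tssk6 the cKO reached 4534 CPM in range 5 and the control 250 CPM. For Tssk5 they are close in range 1 but part in the last ranges, where the counts are few. Its range 5 levels of 4.26 and 0.916 CPM rest on 12 cKO and 4 control UMIs.

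Tssk6 was low until the second range of spermatids in both libraries. In the cKO it was at 66.5, 963, 1990, 2510 and 4534 CPM in ranges 1 to 5, and in the control at 3.45, 48.9, 99.1, 121 and 250 CPM. The order was the same in both libraries, range 1 lowest and range 5 highest, and neighbouring ranges differed by more than their counting intervals. The log2 ratio of cKO over control was 4.30, 4.33, 4.38 and 4.18 in ranges 2 to 5. The counting intervals of ranges 2 to 4 overlapped, and that of range 5 (4.09 to 4.27) lay below that of range 4 (4.29 to 4.47). The ratio of 4.27 in range 1 is not read as expression, since control cells there had 0.0798 Tssk6 UMIs each, no more than the 0.0853 of control somatic cells. Among all measured genes Tssk6 stood at place 12 of 12749 in range 2 and 7 of 5180 in range 5.

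Counted per cell, Tssk6 reached its level in range 2 and hardly moved after it. There were 1.41, 18.1, 21.1, 21.5 and 17.7 UMIs per cKO cell in ranges 1 to 5, against 0.0798, 1.04, 1.34, 1.24 and 1 per control cell. The further increase in CPM went with a decrease in the UMIs of a cell, whose median was 16046 in range 2 and 3448 in range 5 of the cKO, and 19106.5 and 3662.5 in the control. Range 2 was thus the point at which the gene appeared in both libraries.

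Most elongating spermatids of the cKO carried many Tssk6 transcripts. At least 1 Tssk6 UMI was found in 99.7% of 3157 cKO cells and in 65.8% of 3355 control cells, with a median of 17 and 1 UMIs per cell. With each cell thinned to 2000 UMIs the shares were 96.7% and 26.0%. The highest single cells had 198 UMIs in the cKO and 9 in the control. There were 2717 cKO cells with 8 or more UMIs, 86.1% of the class, and 3 control cells, 0.0894%, so the 2 libraries barely overlapped above this level. In round spermatids 57.5% of cKO and 22.1% of control cells had a Tssk6 UMI, and 13.0% and 0.131% had 8 or more.

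**Figure D2:**
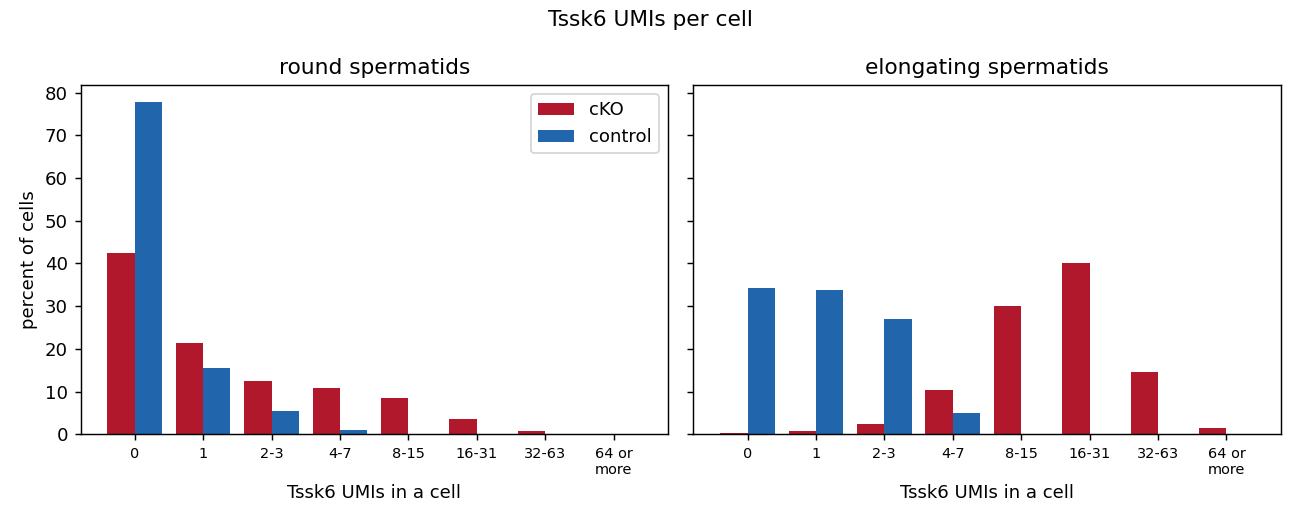
Percent of round (left panel) and elongating (right panel) spermatids by their number of Tssk6 UMIs, cKO in red and control in blue. In elongating spermatids 40.1% of cKO cells had 16 to 31 UMIs, a bin with no control cell, and 34.2% of control cells had none.

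Transcripts of spermatids were also counted in cells that should lack them, which limits what the earlier cells show. Somatic cells had a Tssk6 UMI in 40.2% of 433 cKO and 6.98% of 129 control cells, at a median depth of 2710 and 2403 UMIs. Per cell this was 0.949 UMIs in the cKO and 0.0853 in the control. Spermatogonia (0.557 and 0.0526), early spermatocytes (0.589 and 0.0787) and mid to late spermatocytes (1.16 and 0.0900) had counts of the same order, so their log2 ratios of 3.75, 3.14 and 3.80 are not read as expression. Range 1 spermatids had 1.41 and 0.0798. Free RNA, estimated from the spermatid markers counted in somatic cells, made up 78.6% of Tssk6 UMIs in cKO mid to late spermatocytes and 93.8% in control ones, 29.0% and 24.9% in round spermatids, and 4.49% and 7.06% in elongating spermatids.

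Tssk2 and Tssk3 are the other members with late peaks in CPM. Tssk2, whose product forms a complex with that of Tssk1 and the substrate TSKS in mouse spermatids, was at 779 CPM in cKO and 817 CPM in control round spermatids, and at 1350 and 1287 CPM in elongating ones. It was the highest member in both classes of control spermatids. Its log2 ratio was -0.07 in round spermatids (interval -0.10 to -0.04) and 0.07 in elongating ones (0.05 to 0.09). Over the 5 ranges it was at 663, 1372, 1405, 1082 and 1485 CPM in the cKO and at 625, 1280, 1349, 962 and 1404 CPM in the control, lowest in range 1 and highest in range 5 in both. Its log2 ratios there lay between 0.06 and 0.17. In the control the intervals of ranges 3 and 5 met at 1369 CPM, so these did not differ clearly. Counted per cell, Tssk2 was instead highest in range 2, with 25.8 UMIs in the cKO and 27.3 in the control. It was lowest per cell in range 5, with 5.81 and 5.63 UMIs.

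Tssk3 was at 162 CPM in cKO and 175 CPM in control round spermatids, and at 760 and 783 CPM in elongating spermatids. Like Tssk2 and Tssk6 it was lowest in range 1 and highest in range 5 by CPM. It was at 131, 428, 689, 880 and 1622 CPM in ranges 1 to 5 of the cKO and at 114, 372, 616, 781 and 1691 CPM in those of the control. The log2 ratios were 0.20, 0.20, 0.16, 0.17 and -0.06. The ranges are defined in part by Smcp and Gapdhs, the 2 genes closest to Tssk3 in the control, so these ratios are no independent comparison. With ranges by transition protein and protamine share the log2 ratios were 0.26, 0.71, -0.11, -0.43 and 0.12. Per cell, Tssk3 had 8.05, 7.31, 7.55 and 6.34 UMIs in ranges 2 to 5 of the cKO, against 7.95, 8.31, 8.01 and 6.79 in the control.

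Tssk1 was a gene of the round to elongating transition. It was at 652 CPM in cKO and 690 CPM in control round spermatids (log2 ratio -0.08, interval -0.11 to -0.05), and at 453 and 348 CPM in elongating ones (0.38, 0.34 to 0.42). Over the ranges it was at 597, 801, 448, 140 and 115 CPM in the cKO and at 613, 786, 397, 102 and 79.7 CPM in the control, highest in range 2 and lowest in range 5 in both. The log2 ratios over the 5 ranges were -0.04, 0.03, 0.17, 0.45 and 0.53, and the median over all genes was 0.42 in range 4 and 0.33 in range 5. With ranges by transition protein and protamine share the direction turned in the late ranges, to -0.96 in range 4 and -1.54 in range 5. Tssk1 and Tssk2 thus lie next to each other on the chromosome but differed in the order of their CPM. By CPM, Tssk1 was lower in elongating than in round spermatids (log2 -0.53 in the cKO and -0.99 in the control) and Tssk2 higher (0.79 and 0.66). Per cell, both had fewer UMIs in elongating than in round spermatids. Tssk2 had 13.1 against 17.3 in the cKO and 12.9 against 19.5 in the control.

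Tssk4 and Tssk5 were genes of early round spermatids. Tssk4 was at 252 CPM in cKO and 253 CPM in control round spermatids, with a log2 ratio of -0.01 (-0.05 to 0.04). In elongating spermatids it was at 39.7 and 17.6 CPM, a log2 ratio of 1.18 (1.03 to 1.32). Without clusters 22 and 24, left out as a choice made after seeing the data, it was 0.35, and by ranges of late genes it was -0.07, -0.21, 0.13, 0.47 and 0.29. Over the ranges its levels were 258, 135, 16.7, 10.4 and 14.6 CPM in the cKO, against 270, 157, 15.3, 7.49 and 11.9 CPM in the control. The round spermatid markers moved with it, at a summed 1584 CPM in cKO and 708 CPM in control elongating spermatids, with 0 of 10 at 0 in either library, and their part in the Tssk4 value was not tested. In the control, estimated free RNA came to 112% of the Tssk4 UMIs of elongating spermatids, and in the cKO to 31.2%. The control estimate exceeded the UMIs counted, so it cannot tell whether these control cells had Tssk4 of their own.

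Tssk5 had the lowest levels of the family, with 36.5 CPM in cKO and 31.5 CPM in control round spermatids (log2 ratio 0.21, 0.08 to 0.35) and a UMI in 47.2% and 43.0% of cells. It was at 44.3 and 44.2 CPM in range 1 and at 4.17 and 6.31 CPM in range 2, where 65 cKO and 132 control UMIs gave a log2 ratio of -0.60 (-1.05 to -0.16). In elongating spermatids it had 44 UMIs in the cKO and 25 in the control, fewer than the free RNA estimate of 46.3 and 77.9, so its log2 ratio of 0.95 is no measure of these cells. From range 3 on it had under 50 UMIs over both libraries and was not measured.

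**Figure D3:**
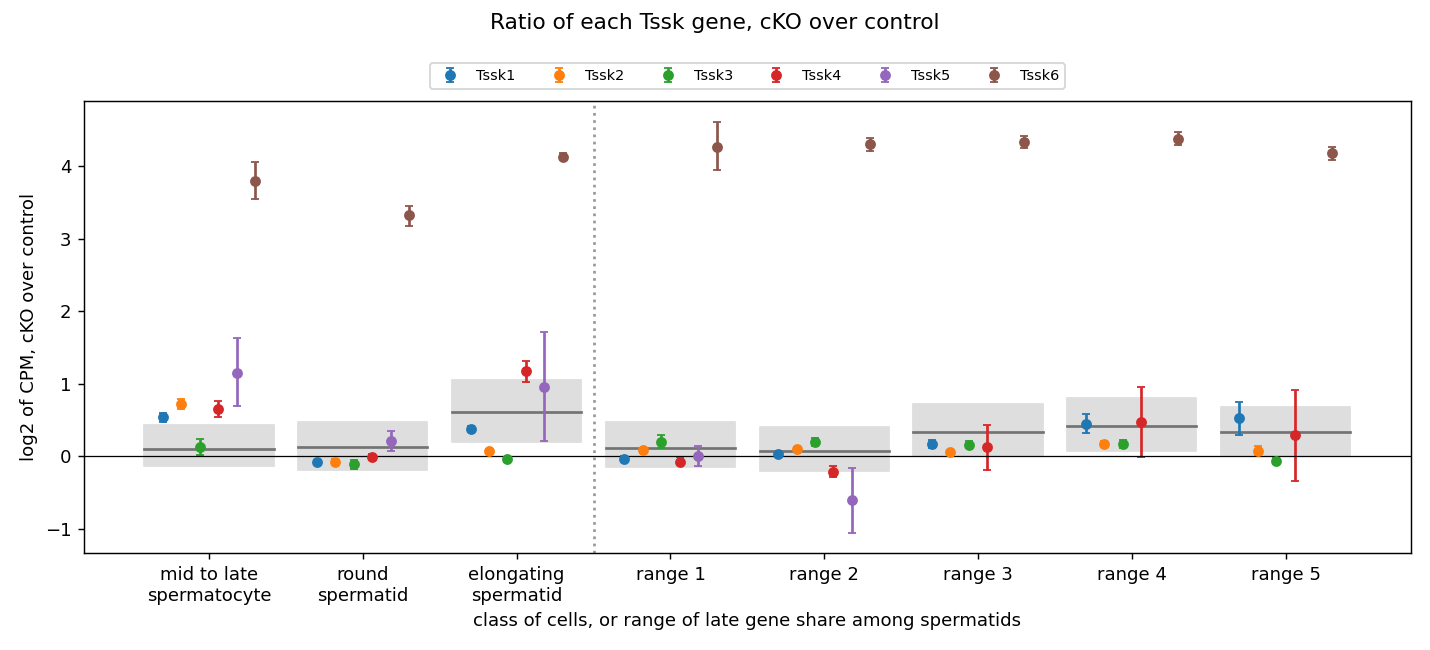
Log2 ratio of CPM, cKO over control, of each Tssk gene in 3 classes (left of the dotted line) and in the 5 ranges of spermatids, with exact 95% intervals. Grey boxes span the interquartile range of all measured genes and the grey line is their median; genes under 50 UMIs are left out. Tssk6 lies between 3.32 and 4.38 in every column, and the other 5 genes at 1.18 or below.

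Read against all genes, Tssk1 to Tssk5 had less extreme ratios than Tssk6. In round spermatids between 29.3% and 57.8% of measured genes had a lower ratio than these 5, and in elongating spermatids between 13.8% and 80.3%. There Tssk2 and Tssk3 were below the lower quartile of 0.20 and Tssk4 above the upper quartile of 1.06. In mid to late spermatocytes 79.5%, 85.7%, 83.6% and 94.0% of genes had a lower ratio than Tssk1, Tssk2, Tssk4 and Tssk5, and in range 2 only 8.19% had a lower one than Tssk5. In elongating spermatids 3 of the 6 genes, Tssk4, Tssk5 and Tssk6, were over 1.5-fold higher and none lower, but 52.0% of 12734 measured genes were also over 1.5-fold higher there and 3.51% lower, with a median log2 ratio of 0.61. In mid to late spermatocytes 4 genes were over 1.5-fold higher (Tssk2, Tssk4, Tssk5 and Tssk6) and none lower, against 18.8% of 16434 genes higher and 5.37% lower. Tssk6 is in both counts by its selection, and its ratio in mid to late spermatocytes is not read as expression. The libraries also drew the mid to late class from a different mix of clusters, whose part was not tested. The levels behind the spermatocyte count were lower than in spermatids, with 95.5 CPM of Tssk2 in the cKO and 57.9 CPM in the control. Free RNA was estimated at 30.9% and 74.0% of the Tssk2 UMIs, and at 9.50% and 22.7% of those of Tssk4. With that estimate subtracted the ratios were larger, at 2.11 for Tssk2, 0.85 for Tssk4, 2.16 for Tssk5 and 1.14 for Tssk3. All 6 genes, the selected Tssk6 among them, were then over 1.5-fold higher. The estimate is uncertain, since it came to 112% of the Tssk4 and 311% of the Tssk5 UMIs counted in control elongating spermatids. For the control it was 2294 UMIs per cell, from 129 somatic cells with a median of 2403 UMIs. The subtracted ratios are thus not read as levels. At clustering resolution 0.5 the ratios of Tssk1 to Tssk5 in this class were below 0. The same count in the 5 ranges was 1 gene higher in each, Tssk6. The shares of all genes higher there were 20%, 17.6%, 32.8%, 38.0% and 30.1%. One member, Tssk5 in range 2, was over 1.5-fold lower, and none was in the other ranges, beside 5.92%, 8.36%, 4.89%, 4.15% and 4.21% of all genes.

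The make-up of the family differed mainly through Tssk6. Summed, the 6 genes were at 4703 CPM in cKO and 2556 CPM in control elongating spermatids, a 1.84-fold difference, and without Tssk6 at 2605 and 2436 CPM, a 1.07-fold difference. Tssk6 made up 44.6% of the family's UMIs in cKO and 4.69% in control elongating spermatids, and 58.3% and 7.28% in range 5. Tssk2 accordingly made up 28.7% and 50.4% of the family's UMIs in elongating spermatids, although its own level was nearly equal. In round spermatids the family sums were 2023 and 1981 CPM, with 6.99% and 0.716% from Tssk6. Thinned to 2000 UMIs, a cKO elongating spermatid had a median of 3 members detected and a control one 2.

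**Figure D4:**
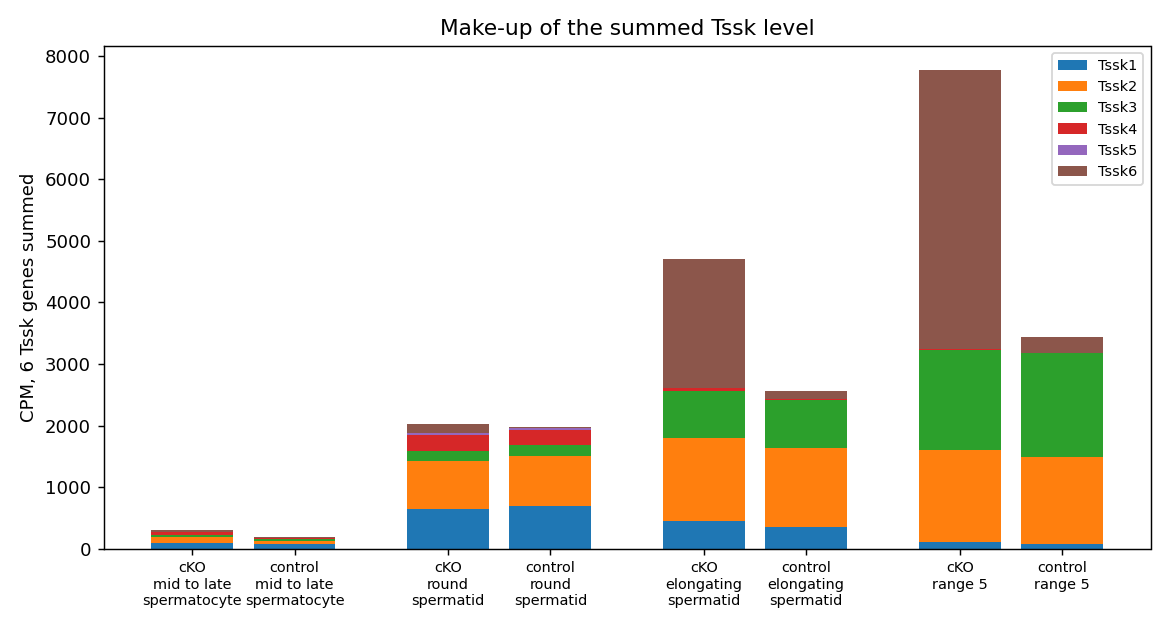
Summed CPM of the 6 Tssk genes in cKO and control cells of 3 classes and of the last range, stacked by gene. The bars without Tssk6 are of like height within each spermatid pair, 2605 and 2436 CPM in elongating spermatids, and the brown Tssk6 segment makes the difference.

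The genes around each member were read for the same ratio, as the nearest on each side and any that overlap. Ndufa13 and Yjefn3 overlap Tssk6 on the opposite strand, and whether the authors' counting used strand is not given in the sources used here. Ndufa13, which codes for a subunit of respiratory complex I, was at 204 CPM in cKO and 269 CPM in control round spermatids (log2 -0.40) and at 725 and 577 CPM in elongating ones (0.33). Yjefn3 had at most 20 UMIs in round or elongating spermatids of either library. Gatad2a, a subunit of the NuRD complex and 3558 bases away, was at 39.5 and 35.7 CPM in round spermatids (0.15) and at 5.10 and 5.79 CPM in elongating ones (-0.18). Neither Ndufa13 nor Gatad2a shared the ratio of Tssk6. Dgcr2, which overlaps Tssk1 on the opposite strand, had log2 ratios of -0.10 and 0.18. Among neighbours with 50 or more UMIs, the one that differed most was Fam229a, 168 bases from Tssk3 on the opposite strand, at 1585 CPM in cKO and 1006 CPM in control round spermatids (0.66) and at 2009 and 1020 CPM in elongating ones (0.98), while Tssk3 itself was near 0 in both. Hgh1, beside Tssk5, had log2 ratios of 0.60 and 0.64.

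**Figure D5:**
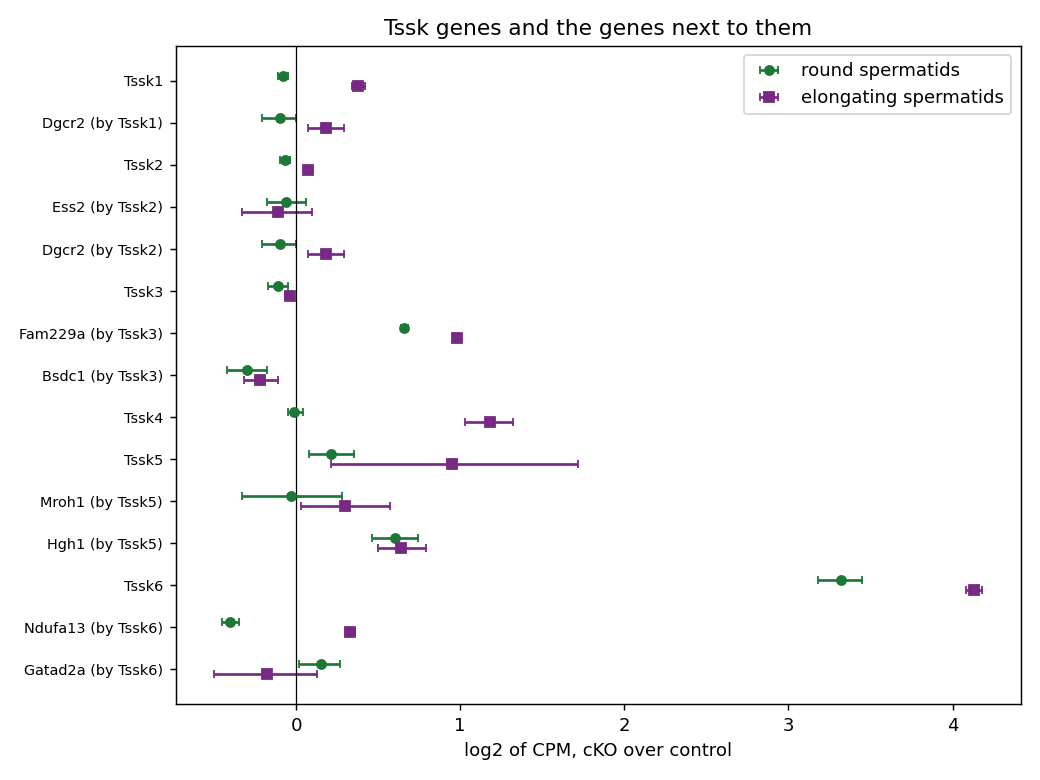
Log2 ratio of CPM, cKO over control, for each Tssk gene and the measured genes that overlap it or lie next to it, in round (circles) and elongating (squares) spermatids, with exact 95% intervals. Tssk6 stands at 3.32 and 4.13, while its neighbours Ndufa13 and Gatad2a lie between -0.40 and 0.33.

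Of 10 genes of proteins known to work with the family, 2 were over 1.5-fold higher and none lower in round spermatids, and 5 higher and none lower in elongating spermatids. The shares of all genes higher were 19.5% and 52.0%, so these counts were at the background. Their median log2 ratios were 0.09 and 0.58, beside 0.13 and 0.61 over all genes. Tsks, the substrate of TSSK1 and TSSK2, was at 695 CPM in cKO and 717 CPM in control elongating spermatids (-0.05). Tsacc, the cochaperone that activates TSSK6, was at 1610 and 1933 CPM (-0.26), so it was not higher with its kinase. Hsp90aa1, the chaperone of the kinases, was at 312 and 154 CPM in the elongating class (1.02). Its log2 ratio was 0.04 in round spermatids and -0.10 over all spermatids. In elongating spermatids H2afx, the histone whose phosphorylation in mouse spermatids needs TSSK6, had 88 and 49 UMIs (0.98, 0.46 to 1.51). Creb1, the CREB gene, had 85 and 41 UMIs there (1.18). Odf2, which codes for an outer dense fibre protein, was at 3564 and 4102 CPM (-0.20).

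Ppp1cc was the partner with the largest ratio in spermatids. The gene codes for the protein phosphatase 1 subunit found in sperm, and TSKS binds this phosphatase. It was at 796 CPM in cKO and 97.0 CPM in control round spermatids, a log2 ratio of 3.04 (2.99 to 3.09), and at 366 and 36.3 CPM in elongating spermatids, 3.33 (3.25 to 3.42). Unlike Tssk6, it was higher in round than in elongating spermatids in both libraries. Its difference was also counted before spermatids, at 916 and 175 CPM in mid to late spermatocytes (2.38) and 533 and 138 CPM in early ones (1.94). The part of free RNA in these values was not estimated.

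Among 12 other kinases of spermatids, 2 were over 1.5-fold higher in round spermatids, Camk4 and Gsk3a, and none lower. In elongating spermatids 5 of the 11 measured were higher (Hipk4, Csnk2a2, Prkaca, Fer and Stk31) and none lower, beside the same 19.5% and 52.0% of all genes. Summed over all spermatids none of the 12 was over 1.5-fold in either direction, but no share of all genes was counted for that sum. In ranges 1 to 5 the kinases higher were 1 of 12 (Camk4), 0 of 12, 0 of 9, 0 of 8 and 2 of 8 measured, and none was lower. The shares of all genes higher in these ranges, given above for the family, lay between 17.6% and 38.0%. Log2 ratios of the measured kinases reached at most 0.70 in round or elongating spermatids. Camk4, a calmodulin-dependent kinase, was at 216 CPM in cKO and 133 CPM in control round spermatids (0.70). Its log2 ratio was 1.05 in range 1 (207 and 99.8 CPM) and 0.02 in range 2. In mid to late spermatocytes it was 1.49 (11.2 and 3.97 CPM). Stk33, a kinase needed for the sperm tail, was at 243 and 245 CPM in round (-0.01) and at 77.2 and 56.7 CPM in elongating spermatids (0.44). 

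Genes with the pattern most like each member were sought in the control alone, by Pearson's r of log2(CPM + 1) over 9 groups of cells (3 earlier classes, 5 ranges and somatic cells) among 16748 genes with 100 or more control UMIs. These groups share 1 library and free RNA, so r is a description. Closest to Tssk6 were Fam71f2 (r = 0.997), Itpr3os (0.996) and Fscn3 (0.995), of which Fscn3 is one of the late genes that define the ranges. Fam71f2 was at 356 CPM in cKO and 368 CPM in control elongating spermatids (log2 -0.05), Itpr3os at 188 and 292 CPM (-0.64) and Fscn3 at 135 and 137 CPM (-0.02). In round spermatids their log2 ratios were -0.52, -1.73 and -0.71, so all were lower in the cKO there. These genes with the timing of Tssk6 in the control thus did not share its difference. The closest to the other members were Tbata, Tulp2 and Adipoq for Tssk1, Irgc1, Tmem270 and Znrf4 for Tssk2, Smcp, Gapdhs and Gsg1 for Tssk3 (Smcp and Gapdhs are also late genes of the ranges), Slc35g3, Impg2 and Fthl17a for Tssk4, and Afm, Tmprss11f and Slc17a6 for Tssk5, with r from 0.978 to 0.997. Slc35g3, Impg2 and Fthl17a were at log2 0.98, 1.13 and 1.06 in elongating spermatids, close to the 1.18 of Tssk4.

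Over the 18 groups of both libraries, where the ratio between libraries counts as part of the pattern, the genes closest to Tssk6 were Entr1 (r = 0.964), Habp4 (0.945) and Stk35 (0.936). Stk35, a serine/threonine kinase gene of another family, was at 116 CPM in cKO and 41.1 CPM in control round spermatids (log2 1.49) and at 704 and 120 CPM in elongating ones (2.56). Habp4 was at 297 and 63.1 CPM in elongating spermatids (2.24) and Entr1 at 232 and 91.5 CPM (1.34). These genes were chosen by the ratio, so their values are a description.

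The targeted gene was read in the same cells. Dot1l was at 4.79 CPM in cKO and 37.6 CPM in control round spermatids, at 42.9 and 108 CPM in mid to late spermatocytes and at 56.6 and 59.1 CPM in early spermatocytes. The labels do not say which exons the delta allele lacks, and tags at the 3′ end do not read a deletion elsewhere in the gene, so these levels do not check the genotype.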

How the data were processed

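Whole testis of 2 genotypes was profiled with a droplet 3′ single-cell kit, 1 library each, per the labels' protocols. The files deposited are matrices of UMI counts, which per the file headers come from Cell Ranger 7.0.0, and the submitters' processing notes name mm10 and Seurat 4.1.0. The members and lists were chosen with earlier results of these data known.

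Barcodes needed 500 UMIs, 300 genes and no more than 10% of UMIs from mitochondrial genes (18451 cKO and 15897 control cells passed). Doublets were called at a score over 0.25 against simulated ones, and 633 cKO and 525 control cells were removed. That limit caught 21.3% and 26.2% of simulated doublets, so most doublets were kept. The 2000 most variable genes, without the Tssk genes, both gene lists, Dot1l, and the testis histone, transition protein and protamine genes, gave 30 principal components and Leiden clusters at resolution 1.0 (scanpy 1.11.5, leidenalg 0.10.2, scipy 1.17.1). A name needed 3 or more markers over 1.5-fold above other cells, a somatic name also spermatid markers under 0.5 of their level in all cells, and a germ cluster with a median under 1/3 of the UMIs of its class was set apart as low RNA. These thresholds were set after the clusters were seen. Somatic cells were the macrophage, mesenchymal, Leydig and lymphocyte clusters.

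UMIs were summed per class and library, and genes under 50 UMIs in the sum of both were set aside. Log2 ratios of CPM carry exact conditional 95% intervals, levels exact Poisson ones and shares of cells exact Clopper-Pearson ones, all for counting error only. Counting genes over 1.5-fold is no test. The ratio and its interval were tested on simulated Poisson counts with known ratios. That is the model behind the interval, so the outcome says nothing on spread between animals or libraries. Named genes were all members, all genes of both lists, neighbours, the 3 genes most like each member (predicted and clone symbols passed over) and Dot1l.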

Additional observations from a re-analysis of the deposited data

Results flagged for a closer look

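Tssk6 was higher in the cKO library also outside the spermatids. Its log2 ratio of cKO over control was 3.62 in somatic cells (189 and 15.3 CPM), 3.69 in the clusters without a name (458 and 35.5 CPM) and 2.44 in low-RNA germ clusters (332 and 61.1 CPM). In the same low-RNA clusters Tssk1 to Tssk5 had log2 ratios from -1.21 to -0.68. The somatic cells are those from which free RNA was estimated, and the part of free RNA in the other clusters was not tested.

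For 3 members the ratio had opposite signs in neighbouring classes, with intervals on opposite sides of 0. Tssk1 had log2 ratios of 0.54 in mid to late spermatocytes, -0.08 in round and 0.38 in elongating spermatids, Tssk2 0.72, -0.07 and 0.07, and Tssk3 0.13 and -0.11 in mid to late spermatocytes and round spermatids. The difference between classes was not tested, and the signs were not stable. In mid to late spermatocytes clustering at resolution 0.5 gave -2.80, -1.98 and -1.68 for Tssk1, Tssk2 and Tssk3, and mitochondrial limits of 5% and 20% gave -0.12 and -0.07 for Tssk1 and -0.23 and -0.31 for Tssk3. In elongating spermatids Tssk1 was at -0.31 at resolution 0.5, and median-of-ratios scaling gave -0.23 for Tssk1 and -0.55 for Tssk2.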

How the results depend on the processing

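No paired analysis was possible because each genotype has 1 library. Tssk6 stayed higher in the cKO in spermatids under every alternative run, with log2 ratios from 3.0 to 4.14 in the round, from 3.52 to 4.45 in the elongating class and from 3.65 to 4.37 over all spermatids, and it was the 1 gene over 1.5-fold higher in round spermatids under each. Of 316 recomputed log2 ratios of members, 134 stayed within the counting interval, and 47 changed sign. Values that were over 1.5-fold and changed sign numbered 6, at resolution 0.5 Tssk2 (-1.98), Tssk4 (-3.80) and Tssk5 (-3.30) in mid to late spermatocytes and Tssk4 in elongating spermatids (-0.96), and Tssk4 in mid to late spermatocytes at mitochondrial limits of 5% (-0.20) and 20% (-0.15). At resolution 0.5 the mid to late class held 1375 cKO and 2469 control cells and the round class 2226 and 800. The number of members over 1.5-fold higher in elongating spermatids was 1, and not 3, with median-of-ratios scaling, classes by highest marker score, or doublets kept. With free RNA subtracted it was also 1, but Tssk4 and Tssk5 then had no ratio and could not be counted. Their control UMIs were below the free RNA estimate. With median-of-ratios scaling 1 member was lower in elongating spermatids. In mid to late spermatocytes the number higher was 1, and not 4, by marker score, at resolution 0.5 and at either mitochondrial limit, and 2 at a 2-fold threshold. At resolution 0.5, 5 members were lower in that class, 1 in round and 1 in elongating spermatids. Median-of-ratios scaling left 1 partner higher and 3 lower, and 0 of the other kinases higher, in elongating spermatids, and 2 partners lower and 0 kinases higher in round ones, and a minimum of 200 UMIs left 3 partners higher in elongating spermatids. Ranges by the share of Tnp1, Tnp2, Prm1 and Prm2 gave mean log2 ratios of 4.36 for Tssk6, -0.52 for Tssk1 and -0.85 for Tssk4, against 4.29, 0.23 and 0.12 by late genes. Leaving out clusters 22 and 24, or barcodes of both libraries, was chosen after seeing the data. Free RNA subtraction left 2 values too low to give a ratio, those of Tssk4 and Tssk5 in elongating spermatids. The cause of these changes was not tested. Depth limits Tssk5 after round spermatids.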
